A study of Mus musculus with 4 samples.

Results

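Listed genes of the HoxB cluster were followed from Hoxb1 to Hoxb13 in mouse embryos that lack Nr6a1. Members were chosen as every probe set that the platform annotation gives to 1 of 9 listed HoxB symbols alone. This gave 11 probe sets for 9 genes, of 45037 probe sets and 18193 named genes tested on the array. Hoxb3 and Hoxb4 had 2 probe sets each and the other members 1. A further probe set, annotated to a listed member and another gene together, was left out by this rule. Hoxb8 is not among the 9 listed symbols, so it was not read here.

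RNA from 4 whole embryos labelled E9.0 was measured, 1 array per embryo, to learn which genes change when the orphan nuclear receptor Nr6a1, formerly Gcnf, is lost. The embryos were 2 wildtypes (labelled wt) and 2 homozygous mutants (labelled Gcnf-/-, here Nr6a1-/-), with no treatment in either group. By the study's methods the mutant line is an established one without tissue-specific deletion, on a background spelled C56BL/6, and embryos were genotyped from the yolk sac within a window that extends past the labelled stage. The labels give neither somite numbers nor litters for these embryos. The paper, citing earlier work, describes slower development in embryos with no Nr6a1 once somites start to form. Genotype and developmental stage therefore cannot be told apart in the values below.

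Hox genes encode homeodomain transcription factors that give cells their position along the head-to-tail axis. Within a cluster they lie in order: genes of low paralogue number are switched on first and reach furthest towards the head, and those of high number come on last, near the tail. HoxB genes of low number pattern the hindbrain and its neural crest, those in the middle of the cluster act in the neck and trunk, and Hoxb13 at the far end acts in the tail, where it limits further elongation. Retinoic acid acts early on the Hoxb1 end, and Wnt signals and Cdx factors act on the trunk genes.

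By the RefSeq annotation of GRCm38.p6 all 9 genes lie on chromosome 11. Hoxb13 stands apart from Hoxb9, with a microRNA gene, Mir196a-1, between them, and a second microRNA gene, Mir10a, lies just before Hoxb4. Both mature microRNAs are shown because they mark the parts of the cluster compared below, and miR-196 is known to target Hox transcripts. Their levels were not analysed here. Capitals mark the seed, bases 2 to 8, which pairs with targets. The first lies at chr11:96265187-96265208 and the second at chr11:96317186-96317208, both on the plus strand.

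mmu-miR-196a-5p: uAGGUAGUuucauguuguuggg
mmu-miR-10a-5p: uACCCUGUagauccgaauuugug

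Signals are log2 values made by the robust multi-array average (RMA), so that a difference of 1 is a 2-fold change. The arrays correlated at 0.9931 to 0.9975 (Pearson r across probe sets). Wildtype replicate 1 was the only female, with an Xist signal of 13.11 against 6.44 to 6.68 in the others. Its Y-linked probe sets, for which a female has no transcript, read 3.42 to 5.83 and show what signal arises without target. Mean 18S ribosomal control signals were 9.45 and 9.99 in wildtypes and 10.82 and 10.74 in mutants. The 5 Nr6a1 probe sets read 0.05 to 0.56 above wildtype in mutants with 0 called. These probes were not placed against the deletion, so they do not check the labels.

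The HoxB cluster did not move as a block. The 7 genes from Hoxb1 to Hoxb7 stayed within 0.29 of wildtype on the log2 scale, Hoxb9 stood lower in both mutants, and Hoxb13 rose 3.50-fold. A call needed a 2-fold change and, from limma over all probe sets, an adjusted p no higher than 0.05. Of the 9 genes, 1 was called higher and 0 lower. Among all probe sets 0.304% were called higher and 0.0777% lower, and 0.975% passed the adjusted p whatever their fold. Of the 11 HoxB probe sets, 5 had both mutants below both wildtypes and 1 had both above, where 27.3% and 23.5% of all probe sets did so. The median log2 fold change of the 9 genes was -0.08, beside -0.01 for all genes.

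**Figure D1:**
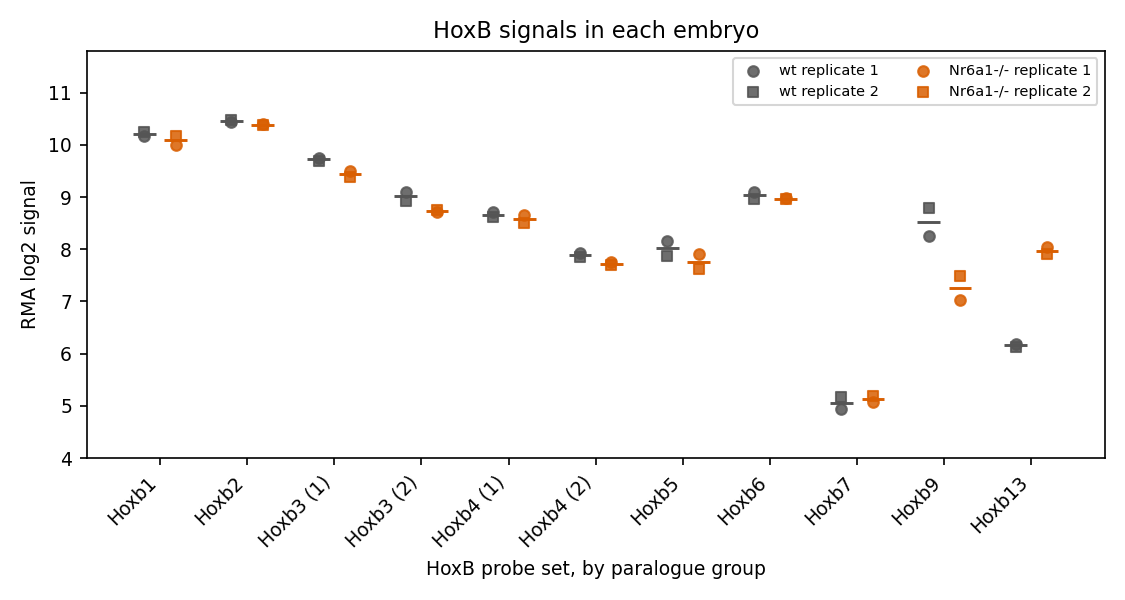
RMA log2 signal (vertical axis) of each embryo for the 11 HoxB probe sets, ordered by paralogue group; replicate 1 is a circle and replicate 2 a square, with wildtypes in grey and Nr6a1-/- embryos in orange, bars are means of 2 embryos, and (1) and (2) are the brighter and dimmer probe sets of a gene. The groups lie close together up to Hoxb7, part downwards at Hoxb9 and part upwards at Hoxb13, from a mean of 6.16 to 7.97.

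Hoxb1 is switched on early by retinoic acid and then kept on in a single hindbrain segment, where its protein, bound with a Pbx cofactor, acts on its own promoter region. The wildtypes read 10.16 and 10.24 and the mutants 9.99 and 10.17, so the groups overlapped. The log2 fold change was -0.12 ± 0.09 (limma's moderated SE, n = 2 per genotype), with a 95% interval from -0.35 to 0.11. The bases before its start are shown because the gene's own regulation is known to act there. They lie at chr11:96365508-96365745 (GRCm38.p6, plus strand, from RefSeq). Capitals mark TGATGGAT, a sequence bound by a Hox protein with Pbx, which was searched after this window had been seen and is found in 0.67% of all 32851 promoter windows of 250 bases.

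Hoxb1: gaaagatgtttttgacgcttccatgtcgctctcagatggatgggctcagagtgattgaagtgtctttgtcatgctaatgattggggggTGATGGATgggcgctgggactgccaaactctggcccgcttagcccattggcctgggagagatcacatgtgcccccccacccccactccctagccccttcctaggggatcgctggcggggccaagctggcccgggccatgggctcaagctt

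Hoxb2, a target of the hindbrain factor Egr2 in the segments that flank the one held by Hoxb1, read 10.44 and 10.47 in wildtypes and 10.39 and 10.38 in mutants. Both mutants lay below both wildtypes, but by little. This gave a log2 fold change of -0.07 ± 0.07, with an interval from -0.24 to 0.10.

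Hoxb3 acts in the hindbrain and in the pharyngeal arch tissues. Its brighter probe set read 9.74 and 9.70 in wildtypes and 9.50 and 9.38 in mutants. The dimmer one read 9.11 and 8.91 against 8.70 and 8.75. Neither pair of groups overlapped, and the probe sets gave nearly the same log2 fold change, -0.27 ± 0.08 and -0.29 ± 0.09. Their 95% intervals, -0.47 to -0.08 and -0.51 to -0.06, left out 0, but neither passed over all probe sets (limma adjusted p = 0.152 and 0.182).

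Hoxb4, expressed from the lower hindbrain backwards and active in the neck vertebrae, read 8.71 and 8.62 in wildtypes and 8.66 and 8.51 in mutants by its brighter probe set. These groups overlapped. By its dimmer probe set it read 7.93 and 7.85 against 7.76 and 7.69, which did not overlap. The log2 fold changes were -0.08 ± 0.09 and -0.16 ± 0.07. The bases before its start, at chr11:96318017-96318266 (GRCm38.p6, plus strand), are shown with Hoxb1 because these are the members matched in the RefSeq promoter table, 2 of 9. The search covered both strands for TCAAGGTCA, the longer site known for Nr6a1, for AGGTCA, the core shared by nuclear receptors and contained in the first, and for TTTATG, a core bound by Cdx factors. The window of Hoxb4 held AGGTCA once, on the minus strand, in capitals below. Neither window held TCAAGGTCA or TTTATG. All promoter windows held TCAAGGTCA in 0.387%, AGGTCA in 14% and TTTATG in 10.8%.

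Hoxb4: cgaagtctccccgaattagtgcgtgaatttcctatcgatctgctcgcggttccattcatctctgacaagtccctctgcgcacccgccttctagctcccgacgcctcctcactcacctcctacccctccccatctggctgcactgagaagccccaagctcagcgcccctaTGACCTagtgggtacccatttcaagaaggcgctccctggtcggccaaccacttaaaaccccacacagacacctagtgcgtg

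Hoxb5, which acts at the junction of neck and thorax, read 8.16 and 7.87 in wildtypes and 7.91 and 7.62 in mutants. Replicate 1 was the higher embryo in both genotypes and the groups overlapped. Its log2 fold change was -0.26 ± 0.14 with an interval from -0.62 to 0.11, wider than for its neighbours. It ran from -0.11 to -0.40 as single arrays were left out.

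Hoxb6, a trunk gene of mesoderm and limb bud, read 9.09 and 8.97 in wildtypes and 8.97 and 8.96 in mutants, so that wildtype replicate 2 and both mutants nearly coincided. They differed by -0.06 ± 0.08 on the log2 scale, with an interval from -0.26 to 0.14. Hoxb7, which acts in the ribcage and is known from the kidney duct, read 4.94 and 5.18 in wildtypes and 5.08 and 5.19 in mutants. These values lie within the range that Y-linked probe sets gave in the female embryo, and Hoxb7 was the only member below the median signal of all probe sets. Its log2 fold change of 0.08 ± 0.11 therefore says little about the transcript, since a change in a weak signal may be understated.

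An antisense transcript that overlaps Hoxb5 and Hoxb6, Hoxb5os, is not a member of the cluster list and was looked up because of that overlap. It read 12.66 and 12.86 in wildtypes and 12.09 and 12.11 in mutants. The groups did not overlap, with a log2 fold change of -0.67 ± 0.09 and a limma adjusted p of 0.0547. A probe set reads 1 strand, so the sense genes and this transcript were measured apart as far as the annotation places the probes correctly.

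Across Hoxb1 to Hoxb7, 8 of 9 probe sets lay below wildtype, with a median of -0.12. In limma 2 of them, both Hoxb3, had an unadjusted p under 0.05, near the 20.1% of all probe sets that did so, and the lowest adjusted p was 0.152. The intervals together ran from -0.62 to 0.35, so 0 of the 9 reached a 2-fold change in either direction. Such intervals cover the spread of these embryos and, for Hoxb7, only the signal and not the transcript.

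Hoxb9 acts with its paralogues in the thorax, where these genes set which ribs join the sternum. The wildtypes read 8.25 and 8.80 and the mutants 7.02 and 7.49. Both mutants lay below both wildtypes, and the embryos of a genotype were further apart than for any other member (SD 0.39 in wildtypes and 0.33 in mutants). Replicate 1 was the lower embryo in both genotypes. The log2 fold change was -1.27 ± 0.23, or 2.41-fold lower, with a 95% interval from -1.86 to -0.67. It did not pass over all probe sets (limma adjusted p = 0.0842), nor with the replicate number as a block (SE 0.07, adjusted p = 0.156). It did pass among probe sets at or above the median signal (adjusted p = 0.0406) and with an intensity trend in the prior (0.0293), and over all alternatives the adjusted p ran from 0.0293 to 0.293. With single arrays left out the log2 fold change ran from -0.99 without wildtype replicate 2 to -1.54 without wildtype replicate 1.

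Hoxb13, the last gene of the cluster, is normally switched on late, near the tail. In wildtype embryos at E9.5 the paper found it only in endoderm of the hindgut. The wildtypes read 6.19 and 6.14, just above the signals that Y-linked probe sets gave in the female. The mutants read 8.04 and 7.91, and the groups were far apart. The log2 fold change was 1.81 ± 0.08, with an interval from 1.61 to 2.01 (limma adjusted p = 0.00821). Because the wildtype signal is weak, the 3.50-fold rise may understate the change in the transcript. Without any 1 array it stayed between 1.74 and 1.87, but with fewer arrays the adjusted p was 0.068 to 0.134 and the call was lost. In whole embryos, a changed number of cells with a transcript and a changed level per cell cannot be told apart, here and for Hoxb9.

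**Figure D2:**
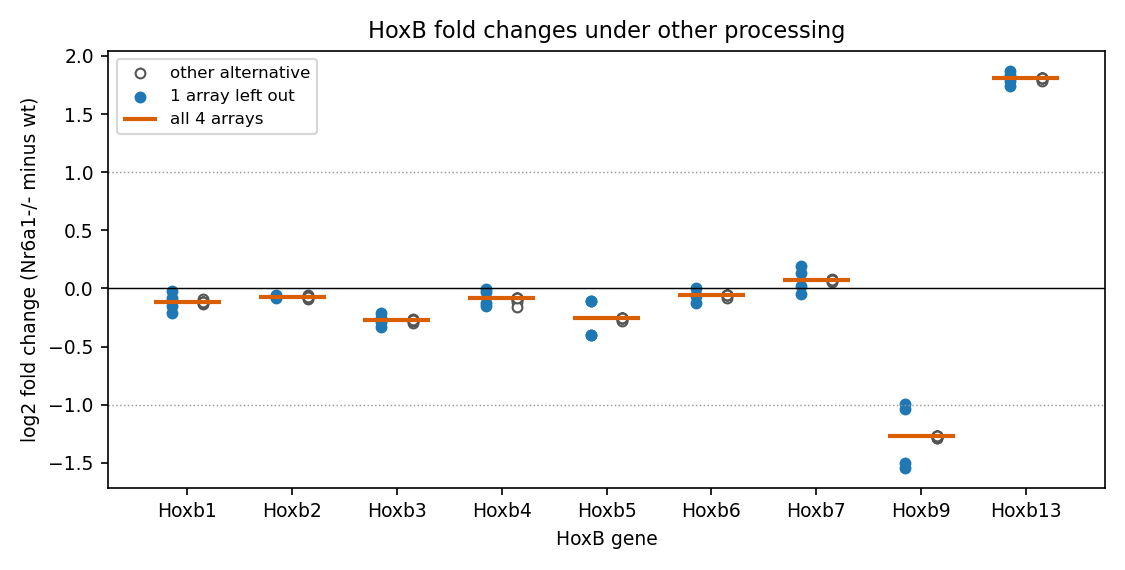
Log2 fold change (vertical axis, Nr6a1-/- minus wildtype) of each HoxB gene (horizontal axis) with all 4 arrays (orange bars), with 1 array left out (blue points) and under the other alternatives (open points); dotted lines mark 2-fold. Hoxb13 stayed between 1.74 and 1.87, whereas Hoxb9 spread from -0.99 to -1.54.

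The 16 measured genes of the same paralogue groups in the HoxA, HoxC and HoxD clusters give the context for these values. Their median was -0.38, against -0.08 for HoxB, with 1 called lower and 1 higher. For each of the 16 pairs the paralogue's signal was subtracted from the HoxB signal within each array, and this difference was compared between genotypes. An exact permutation test over 2 and 2 arrays, two-sided, cannot go below p = 0.33, so it could call no pair. The differences were therefore also fitted with limma as rows of the table of all probe sets, a choice made after the data were seen. Of the 16 pairs, 3 passed this fit over all rows, and 11 had an unadjusted p under 0.05. Several pairs share a gene, so they are not independent. Among single probe sets, which are not differences between genes, 20.1% had such a p. Each of the 3 pairs that passed involves a probe set in the range found without target, in one or both genotypes. With any 1 array left out 0 pairs passed.

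At the hindbrain end the differences were small, apart from Hoxd3. The log2 fold change of Hoxb1 exceeded that of Hoxd1 (-0.15) by 0.04, with an interval from -0.15 to 0.22. That of Hoxb2 exceeded Hoxa2 (-0.15) by 0.08, from -0.15 to 0.30. Hoxb3 stood 0.01 above Hoxa3 (-0.29) and 0.53 above Hoxd3, which was at -0.80. The last of these did not pass (limma adjusted p = 0.0914).

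From group 4 to group 6 the HoxB genes lay above their HoxC paralogues, and in groups 4 and 5 they lay below those of HoxA. Hoxb4 exceeded Hoxc4 (-0.48) by 0.40 and was 0.19 below Hoxa4 (0.11). Hoxb5 exceeded Hoxc5 (-0.79) by 0.53 and lay 0.48 below Hoxa5 (0.23). Hoxb6 exceeded Hoxc6 (-0.55) by 0.49 ± 0.07, with an adjusted p of 0.0589 in limma. Each of these 5 pairs had groups that did not overlap and missed the threshold. Among all 16 pairs, 8 had both mutants above both wildtypes and 3 had both below. Among single probe sets, which are not differences between genes, 23.5% and 27.3% did so. Hoxb7 exceeded Hoxa7 (-0.51) by 0.59 ± 0.08 (limma adjusted p = 0.0499). The Hoxb7 signal lies in the range found without target, where a change may be understated.

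In group 9 all 4 genes read lower in both mutants than in both wildtypes. Hoxa9 was called at -1.10 and Hoxb9 stood at -1.27, a difference of -0.17 with an interval from -0.78 to 0.44. Hoxc9 was at -0.94 and Hoxd9 at -0.57. Against Hoxc9, Hoxb9 differed by -0.33 (interval -0.90 to 0.23). Against Hoxd9 it differed by -0.70 (interval -1.40 to -0.01), with groups that did not overlap, and missed the threshold (adjusted p = 0.242 in limma).

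In group 13 the signal of the HoxB gene differed more between genotypes than those of its 3 paralogues. Hoxd13 was called at 1.09, Hoxa13 was at 0.60 and Hoxc13 at 0.05. Hoxb13 exceeded Hoxa13 by 1.21 ± 0.09 (limma adjusted p = 0.0174) and Hoxc13 by 1.76 ± 0.17 (adjusted p = 0.0331). It exceeded Hoxd13 by 0.71 ± 0.14, which did not pass (adjusted p = 0.0919). Hoxc13 read 5.25 to 5.59 over all 4 arrays and Hoxa13 read 5.33 and 5.12 in wildtypes, within the range found without target. These differences therefore compare signals and not transcripts, since a change in either paralogue may be understated. With single arrays left out the excess was 1.13 to 1.29 over Hoxa13, 1.53 to 1.99 over Hoxc13 and 0.52 to 0.91 over Hoxd13.

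**Figure D3:**
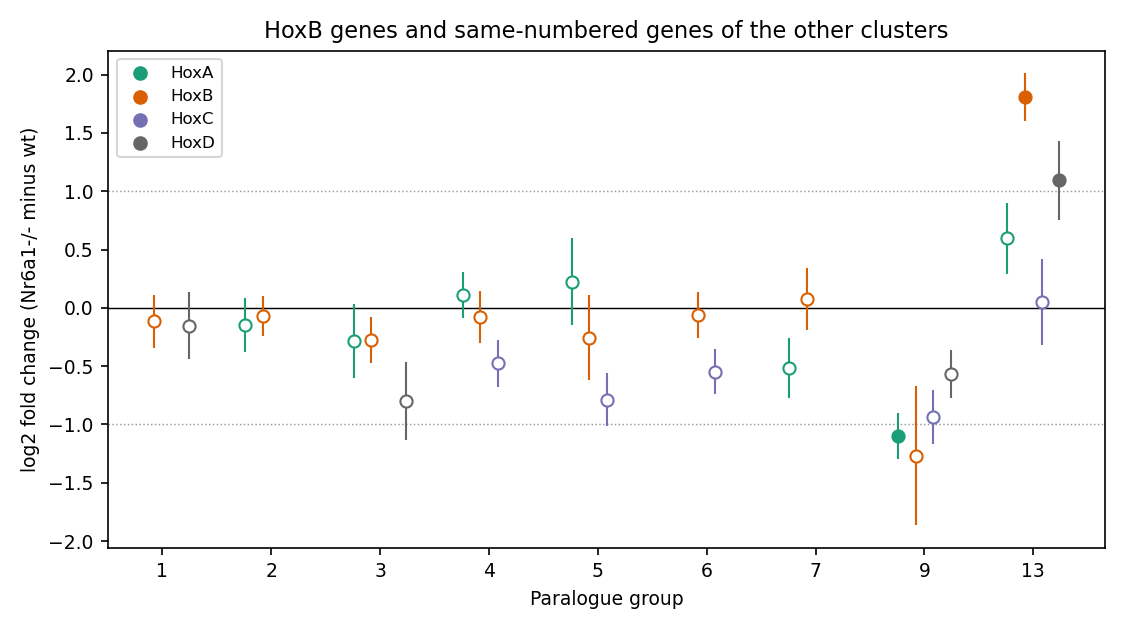
Log2 fold change (vertical axis, Nr6a1-/- minus wildtype, bars are 95% intervals from limma, n = 2 embryos per genotype) of the HoxB genes and the same-numbered genes of the other clusters, by paralogue group (horizontal axis). Filled points were called, dotted lines mark 2-fold, and the HoxB genes in orange stay near 0 up to group 7, reach -1.27 in group 9 and 1.81 in group 13.

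Regulators that act on the HoxB cluster were read from lists of genes. Of 12 measured retinoic acid genes 0 were called, and the median was -0.08. The members with the smallest p passed the adjusted p but not 2-fold. Aldh1a2, which makes retinoic acid, read 9.32 and 9.57 in wildtypes and 10.33 and 10.24 in mutants, a log2 fold change of 0.84 (limma adjusted p = 0.0487). Cyp26b1, which breaks retinoic acid down, stood at -0.83 (adjusted p = 0.0481) and the receptor gene Rxrg at 0.73 (adjusted p = 0.0438). The related Cyp26a1 stood at 0.37, with both mutants above both wildtypes. Crabp1 at -0.55 and Crabp2 at -0.52 had both mutants below both wildtypes. These did not pass the adjusted p. Of the 12 genes 4 lay above wildtype and 8 below, so the list had no common direction.

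Of 11 measured axial regulators, among them the Cdx, Wnt and Fgf genes of the tail end, 2 were called, both higher. The pluripotency factor Pou5f1 rose by 5.38 and the ligand gene Wnt8a by 2.45 on the log2 scale. Both Wnt8a wildtypes (5.30 and 5.37) and Pou5f1 in wildtype replicate 1 (5.23) lay in the range found without target, so the transcripts may have changed by more. The Cdx genes, which act on trunk Hox genes, differed in direction. Cdx1 read 6.85 and 6.85 in wildtypes and 7.75 and 8.38 in mutants, Cdx4 read 7.13 and 7.39 against 6.38 and 6.68, and Cdx2 overlapped. Cdx1 at 1.22 and Cdx4 at -0.73 did not pass (limma adjusted p = 0.0746 and 0.0907).

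Of 4 measured genes listed as hindbrain regulators 0 were called. Egr2, which activates Hoxb2, read 7.04 and 7.16 in wildtypes and 6.10 and 6.85 in mutants, a log2 fold change of -0.63 ± 0.25. Nr2f2 stood at -0.43 and Vgll1 at -0.25. Vgll1 read 4.96 to 5.48 over the arrays, in the range found without target, and its groups overlapped. Of 8 Hox cofactors 0 were called and the median was -0.08. Pknox2, a partner of Pbx proteins, stood at -0.52 (limma adjusted p = 0.0506), Pbx4 at 0.34 and Meis3 at 0.15. Of 13 Polycomb and Trithorax genes, which keep Hox genes silent or active, 0 were called. They ranged from -0.30, for the Hox activator Kmt2a, to 0.14, with Bmi1 at -0.23 and Cbx2 at -0.24.

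The genes that flank the cluster on both sides were compared in the same way. Of 12 measured, 0 were called and they ranged from -0.30 to 0.27. Ttll6, the nearest of them to Hoxb13, had a wildtype mean of 7.06 and a mutant mean of 7.18, a log2 fold change of 0.12 with an interval from -0.07 to 0.32. Skap1, the nearest to Hoxb1, stood at 0.00. Nfe2l1 at -0.30, Igf2bp1 at -0.27 and Atp5g1 at -0.17 had the smallest p.

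**Figure D4:**
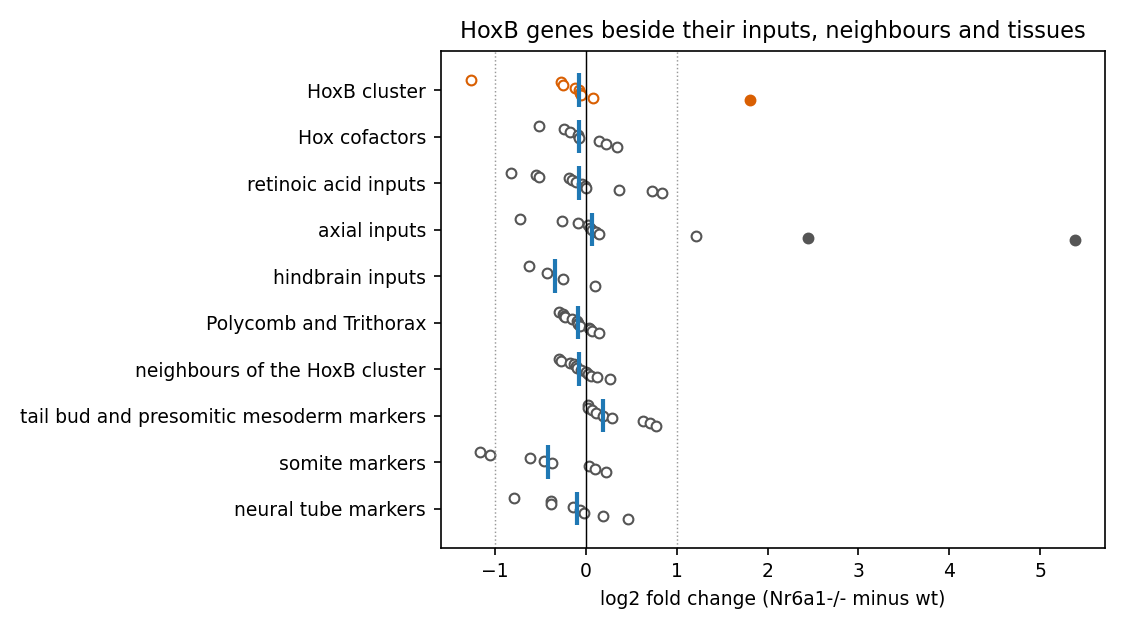
Measured genes (points, filled where called) by their log2 difference between Nr6a1-/- and wildtype embryos (horizontal axis), for the HoxB cluster and the lists of regulators, flanking genes and 3 tissues (tail bud and presomitic mesoderm, somite, neural tube); blue bars are medians and dotted lines mark 2-fold. Among the lists plotted, Hoxb13, Pou5f1 and Wnt8a are the filled points, and 0 of the 12 flanking genes were called.

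Marker genes of the tissues in which these genes act were read beside them. All 9 measured tail bud and presomitic mesoderm markers lay above wildtype, by 0.02 to 0.77 with 0 called. In 4 of them both mutants lay above both wildtypes, while Msgn1, Wnt3a, Fgf8, Cdx2 and Dll1 overlapped. Wnt3a, Fgf8 and Cdx2 are also among the axial regulators above. Over all 18193 genes 8583 lay above wildtype, and 4764 had both mutants above both wildtypes. The summed signal of the 9 markers, as log2, was 11.61 and 11.78 in wildtypes and 11.93 and 12.09 in mutants. Nkx1-2 read 0.77, Tbx6 0.71 and Rspo3 0.63. This accompanied the rise of Hoxb13, which was larger than that of each of the 9, and the part of the tail bud in it was not tested. No list of hindgut markers was read. Of 8 somite markers 5 lay below wildtype (median -0.42, 0 called), with summed signals of 11.77 and 11.58 in wildtypes and 11.36 and 11.26 in mutants. Uncx stood at -1.17, Meox2 at -1.05, Meox1 at -0.62, Pax1 at -0.46 and Tcf15 at -0.37, each with both mutants below both wildtypes. Over all 18193 genes 5527 had both mutants below both wildtypes. Pax3 stood at 0.22, with both mutants above both wildtypes, while Myf5 at 0.10 and Pax9 at 0.03 overlapped. Somite markers thus lay on both sides of wildtype, with the larger differences below it. The part of somite tissue in the Hoxb9 difference was not tested.

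Of 8 neural tube markers 6 lay below wildtype (median -0.10, 0 called), with Nkx6-1 at -0.39, Dbx1 at -0.39 and Olig2 at -0.80. Sox1 at 0.46 and Irx3 at 0.18 had both mutants above both wildtypes, while Sox2, Sox3 and Pax6 overlapped. Neural tube markers thus lay on both sides of wildtype. The summed signal of the 8 was 12.86 to 12.97 in wildtypes and 12.93 to 12.97 in mutants. Other tissues of the embryo are given for comparison. Of 7 head markers 5 were below wildtype, with En2 called 3.99-fold lower and summed signals of 10.95 to 11.01 against 10.87 to 10.94. Otx2 stood at 0.19, with both mutants above both wildtypes. Of 8 heart markers 7 were above, with Myl3 called at 1.24 and Nppa at -1.84, and sums of 14.85 to 15.05 against 15.31 to 15.37. All 7 red cell markers were above by 0.07 to 0.98, with sums of 16.50 and 16.55 against 16.69 and 16.62.

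Tissue from outside the embryo was looked for as well. Yolk sac endoderm markers were bright on every array, with Afp at 13.83 to 14.20 and sums of 16.73 to 16.87 in wildtypes and 16.57 to 16.75 in mutants, and 7 of 9 lay below wildtype with 0 called. Of 5 trophoblast and decidua markers, Prl8a2, Tpbpa, Psg17 and Ctsq read 3.69 to 5.73, as the Y-linked probe sets did in the female, and Plac1 stood at 0.96 (limma adjusted p = 0.0378). The sum of these 5, 10.53 and 10.73 in wildtypes and 11.56 and 11.52 in mutants, is almost wholly Plac1 (10.40 and 10.64 against 11.51 and 11.46).

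The genes most like each end of the cluster were found by the Euclidean distance between log2 profiles over the 4 arrays, each centred on its mean, among 16438 genes. Those nearest to Hoxb1 were Dgke (distance 0.0105), Usp12 (0.0105) and Npy2r (0.0113), with log2 fold changes of -0.11 to -0.12. Those nearest to Hoxb13 were Srgn (0.179), Acadl (0.200) and Esm1 (0.256), which rose by 1.68, 1.82 and 2.04. Npy2r read 3.05 to 3.30 over the arrays and Esm1 5.24 and 5.23 in wildtypes, no higher than signals found without target. The likeness of these genes is therefore one of signals and not of transcripts.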

How the data were processed

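Whole-embryo RNA was hybridised to Affymetrix mouse genome arrays. The deposited values are log2 signals that the authors made with RMA, which corrects background, equalises the arrays' distributions and summarises probes, with no version named. Quantile normalisation removes shifts shared by most transcripts, and weak signals understate changes. Of 45101 probe sets, 64 controls were left out. The annotation gave 34945 probe sets 1 symbol, 932 several and 9160 none. Entrez identifiers matched 99.4% of the first to RefSeq (GRCm38.p6), changing 0 symbols. The brightest probe set stood for a gene.

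Genotypes were compared with lmFit and eBayes (limma 3.58.1, R 4.3.3), with Benjamini-Hochberg adjustment over 45037 probe sets. Thresholds are the study's. Replicates were taken as separate embryos, since the methods describe extraction per embryo. The p-values measure the spread between these embryos only. With 2 arrays a group, precision rests on a spread shared across probe sets (prior SD 0.0849, 3.15 degrees of freedom). Members and lists were chosen with earlier results of these data known. The genes named were all HoxB probe sets and paralogues, called members of each list or otherwise up to 3 with the smallest p, and nearest profiles. Further members of some lists are named as well. The alternatives were a replicate block, arrays left out, a signal filter, repeated quantile or median scaling, an intensity trend or robust prior, no fold threshold, and other choices of probe set.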

Additional observations from a re-analysis of the deposited data

How the results depend on the processing

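The number of arrays limits the precision. The Hoxb13 call was lost whichever array was left out, while its log2 fold change stayed at 1.74 to 1.87. Leaving out each array in turn, where the lone embryo is assumed to vary like the other genotype, gave 0 HoxB genes lower and 0 to 0 higher in limma, with 0 to 2 probe sets lower and 0 to 7 higher (5241 to 7244 at an unadjusted p under 0.05). With the replicate number as a block, 0 HoxB genes were higher and 0 probe sets were lower or higher (8358 at an unadjusted p under 0.05), with Hoxb13 still at 1.81 but at an adjusted p of 0.156. The labels do not say whether embryos with the same number share a litter or batch. Their deviations from the genotype means correlated at 0.058 over all probe sets, which cannot settle this. Hoxb9 added 1 HoxB gene lower among brighter probe sets and 1 with an intensity trend, which called 61 probe sets lower. Without a fold threshold 115 were lower and 324 higher, by construction, and with a gene's probe sets averaged 88 were higher, over fewer rows. The limma fit of paralogue differences called 3 pairs, the exact test 0. With single arrays left out Hoxb6 ran from -0.12 to 0.0020 and Hoxb7 from -0.044 to 0.20, both changing direction without wildtype replicate 1. The other 7 HoxB genes kept their direction in all 14 alternatives. The cause of other changes was not tested.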
